A study of Homo sapiens with 6 samples.

Results

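Mitochondrial RNA was read by Nm-mut-seq in the chromatin-associated RNA (caRNA) of HepG2 cells, an established line from a human liver tumour. The members are 2429 of the 387463 positions listed in the deposited tables. They are all listed positions of the mitochondrial chromosome (hg38) on both strands, apart from the plus-strand positions inside the rRNA genes MT-RNR1 and MT-RNR2. By the GENCODE release 44 gene on its own strand, a position belongs to the tRNA genes (47 positions), to the protein-coding genes (903), to no gene on the minus strand (1464), called light-strand RNA here, or to no gene on the plus strand (15). Nm-mut-seq reads 2′-O-methylation (Nm) of G, A and C as T in the cDNA, and the ratio of reads with T to all reads at a position is the mutation ratio.

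The ligated RNA of 3 biological replicates was divided between 2 reverse transcriptions, which gave 6 libraries. The imbalanced dNTP libraries received dATP at 1 mM but the other dNTPs at 2 µM each, and the balanced dNTP libraries, the input, every dNTP at 1 mM. All 6 libraries share the untreated cell line and the depletion of rRNA, and RNA shorter than the cutoff of the size selection had been removed. The tRNA values therefore come from whatever tRNA-containing RNA was left, mature or precursor, and which of these it was cannot be told apart here. The comparison of both conditions asks which mutated positions depend on the dNTP imbalance.

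Human mitochondrial DNA is transcribed from both strands into long precursors. The heavy-strand promoter gives the rRNAs, most tRNAs and all mRNAs but one, and tRNAs are cut out of the precursor to free the mRNAs between them. The light-strand promoter gives MT-ND6 and a minority of the tRNAs, and the rest of that transcript is noncoding antisense RNA, which is degraded quickly in the organelle. Mitochondrial tRNAs carry many base methylations, among them methylation of the purine at position 9 by the complex of TRMT10C and HSD17B10, and several of these block base pairing in reverse transcription.

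The files list a position under imbalanced dNTP only where at least 3 reads carried T in at least 1 library, and under balanced dNTP where at least 1 did, so that a position absent from a table has no value in it. Of the members, 1487 were listed under imbalanced dNTP, 1179 under balanced dNTP and 237 under both. The median depth at listed members was 39, 33 and 53 reads in imbalanced replicates 1, 2 and 3, and 51, 34 and 51 reads in the balanced ones. Members held from 0.308% to 0.392% of the summed imbalanced depth and from 0.204% to 0.247% of the balanced depth. Of 10 hepatocyte markers 9 had a listed position, and of 4 markers of other lineages 0 had one. Deviations of depth set replicate 3 apart from the other 2 in both conditions, and values without it are given with the other alternatives.

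T reads under balanced dNTP lay at few tRNA positions, among them the ninth base. Under balanced dNTP the ninth base of the gene was listed in 6 tRNA genes, and its mean mutation ratio was between 18.9% and 76.7%, with a median of 29.4%. The other 28 listed tRNA positions had a median of 1.04%, and 21 of them were under 5%. The first 20 bases of these 6 genes are shown because the ninth base, in capitals, carries the T reads. They are from the hg38 reference, 5′ to 3′ on the gene's own strand.

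MT-TF, chrM:577-596, plus strand: gtttatgtAgcttacctcct

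MT-TV, chrM:1602-1621, plus strand: cagagtgtAgcttaacacaa

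MT-TL1, chrM:3230-3249, plus strand: gttaagatGgcagagcccgg

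MT-TC, chrM:5807-5826, minus strand: agctccgaGgtgattttcat

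MT-TG, chrM:9991-10010, plus strand: actcttttAgtataaatagt

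MT-TP, chrM:16004-16023, minus strand: cagagaatAgtttaaattag

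The ninth base is A in 14 of the 22 tRNA genes, G in 5, C in 2 and T in 1. Only 11 genes had a listed position at all, 8 of the 14 on the plus strand and 3 of the 8 on the minus strand. Of these 11 genes 9 have a purine at the ninth base, and that base was listed in 6 of them. In the other 2 genes the ninth base is a C or a T, and it was listed in 0 of them. A reference T can give no mutation in this readout.

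Values at the ninth base were as follows. In MT-TF, the phenylalanine tRNA, 23 of 79, 14 of 55 and 13 of 60 reads carried T in the 3 balanced libraries, and 2 of 31, 0 of 27 and 8 of 30 in the imbalanced ones. Balanced and imbalanced ratios overlapped through imbalanced replicate 3. The fitted odds of T against no T fell by 1.45 on the log2 scale without passing the test (edgeR quasi-likelihood, adjusted p = 0.119). All edgeR log2 changes given here are of these odds. In MT-TL1, the leucine tRNA that reads UUR codons, 11 of 45, 5 of 32 and 9 of 39 reads carried T under balanced dNTP, against 0 of 15, 1 of 14 and 4 of 25 under imbalanced dNTP. The highest imbalanced ratio of MT-TL1 was above the lowest balanced one (edgeR log2 change -1.48, adjusted p = 0.25).

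MT-TV, the valine tRNA, had the highest ratio, at 9 of 11, 10 of 14 and 10 of 13 balanced reads and 5 of 9, 3 of 6 and 4 of 9 imbalanced reads. Every balanced library of MT-TV was above every imbalanced one, at a depth under the minimum of 10 reads that the test asked for. The ninth bases of MT-TV and MT-TC lie in windows of 100 nt that match the nuclear genome at 98% identity or more, so that reads of a nuclear copy cannot be told apart there. MT-TP, the proline tRNA of the light strand, had T in 7 of 15, 6 of 15 and 4 of 11 balanced reads and in 3 of 11, 3 of 6 and 4 of 13 imbalanced reads. In MT-TP the conditions overlapped. The cysteine tRNA MT-TC (3 of 19, 1 of 7 and 4 of 15 reads) and the glycine tRNA MT-TG (4 of 8, 1 of 6 and 2 of 6 reads) had a listed ninth base under balanced dNTP only.

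**Figure D1:**
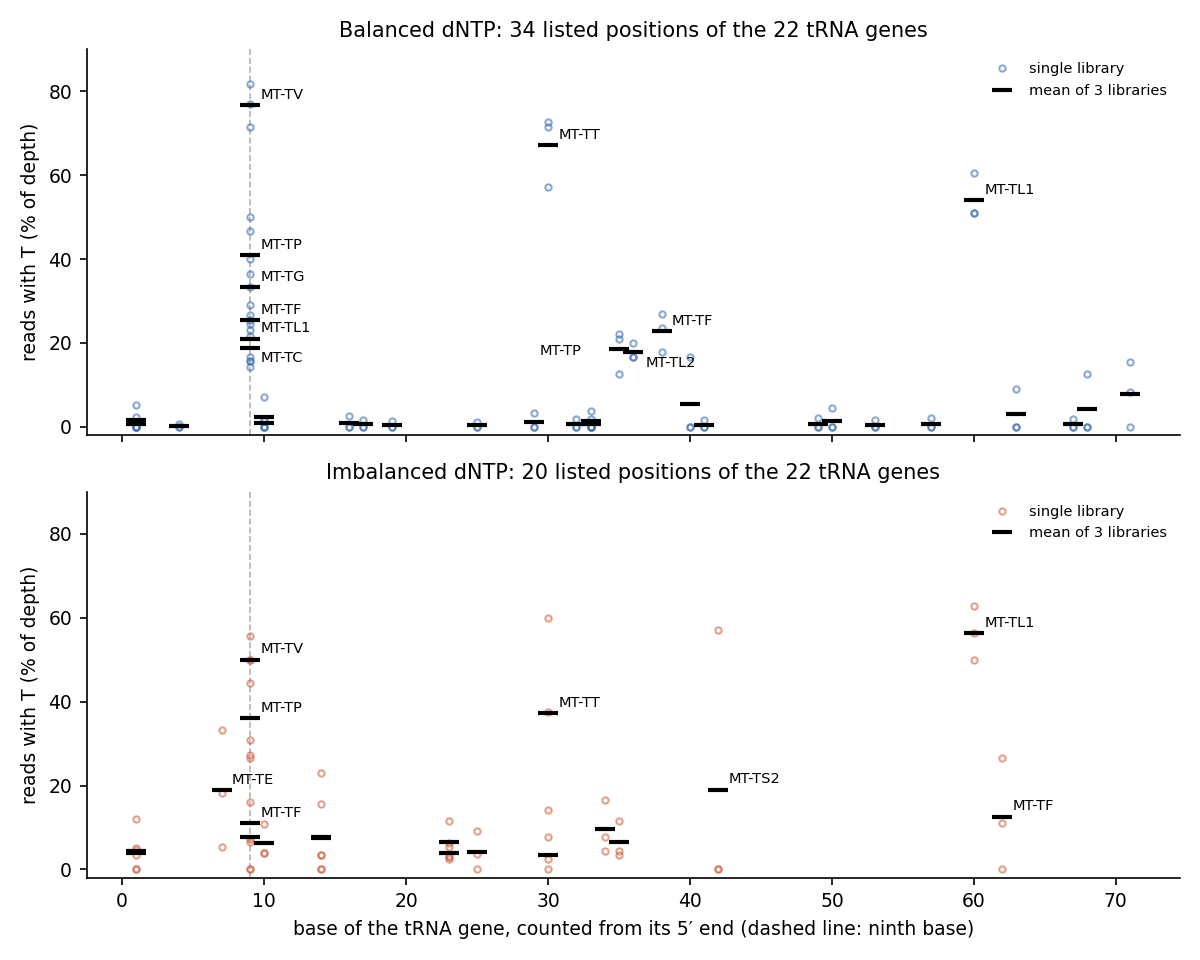
Mutation ratio (reads with T as a percentage of depth, vertical axis) at every listed position of the tRNA genes against the base of the gene (horizontal axis), under balanced dNTP above and imbalanced dNTP below. Open points are single libraries, black bars the mean of 3 libraries, and genes are named where the mean is at least 10%: balanced T reads stood at the ninth base of 6 genes and at 5 further positions.

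At the 4 ninth bases listed in both tables, the median ratio over genes was 37.9%, 32.7% and 29.7% in the 3 balanced libraries and 16.9%, 28.6% and 28.7% in the imbalanced libraries. The ratio was lower under imbalanced dNTP in 10 of 12 pairs of gene and replicate, and by 8.73 percentage points on average (SD 10.8, n = 3; two-sided exact permutation test on pairs, p = 0.25, the smallest that 3 pairs allow). The mean difference was -2.58 percentage points without replicate 1. Reads with bases other than T also occurred there. In MT-TL1 13 of 116 balanced reads carried A or C at the ninth base beside 25 with T, and in MT-TG 8 of 20 carried another base beside 7 with T. In MT-TF the split was 7 other reads and 50 with T, of 194.

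A further 5 tRNA positions had a mean ratio of 10% or more under balanced dNTP. The highest among those with over 100 balanced reads in sum was base 60 of MT-TL1, an adenosine in the T loop, where mitochondrial tRNAs can carry 1-methyladenosine made by TRMT61B. T was found in 29 of 57, 26 of 43 and 27 of 53 balanced reads and in 22 of 35, 18 of 32 and 18 of 36 imbalanced reads. The ranges of both conditions overlapped, with means of 54.1% ± 5.52 and 56.4% ± 6.43 (SD, n = 3; edgeR log2 change 0.15, adjusted p = 0.837).

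The remaining 4 lay in the anticodon loop. In the usual tRNA numbering, with the first anticodon base as 34, they are position 32 of MT-TT and position 37 of MT-TF, MT-TL2 and MT-TP. Position 32 of the threonine tRNA is known for 3-methylcytidine made by METTL8, position 37 of the phenylalanine tRNA for an isopentenyl-type adenosine made by TRIT1 and CDK5RAP1, and position 37 of the proline and leucine CUN tRNAs for 1-methylguanosine made by TRMT5. Their surroundings and that of MT-TL1 base 60 are given with the mutated base in capitals, again from hg38 on the gene's strand.

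MT-TL1, chrM:3279-3299, plus strand: cagaggttcaAttcctcttct

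MT-TT, chrM:15907-15927, plus strand: atacaccagtCttgtaaaccg

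MT-TF, chrM:604-624, plus strand: atacactgaaAatgtttagac

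MT-TL2, chrM:12291-12311, plus strand: ttggtcttagGccccaaaaat

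MT-TP, chrM:15979-15999, minus strand: ttagctttggGtgctaatggt

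In MT-TT the cytidine read as T in 8 of 14, 5 of 7 and 8 of 11 balanced reads and in 3 of 8, 6 of 10 and 1 of 7 imbalanced reads. The highest imbalanced library exceeded the lowest balanced one. The adenosine of MT-TF gave T in 25 of 93, 10 of 56 and 13 of 55 balanced reads, with 0 reads of any further base among 204. It was not listed under imbalanced dNTP, although the nearest listed base of the gene, 3 bases away, had depths of 23, 26 and 29 reads there. The guanosine of MT-TP gave T in 6 of 27, 3 of 24 and 4 of 19 balanced reads. The guanosine of MT-TL2 had 4 reads with T and 9 with another base among 22 balanced reads, at the shallowest depth of the set. Neither guanosine was listed under imbalanced dNTP.

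Counted by threshold, 7 of the 34 listed tRNA positions had T in at least 10% of reads in all 3 balanced libraries with a depth of at least 10. Of all positions listed under balanced dNTP, 0.276% did. The coding genes had 3 such positions among 558 and light-strand RNA 2 among 573. The 7 tRNA positions comprised 5 adenosines and 2 guanosines, whereas all 5 others were cytidines, each with T in at least 80% of reads in every balanced library. With a lower depth allowed, 7 members reached 80% in all 3 balanced libraries, 4 in coding genes (MT-CO1, MT-ND4 and 2 in MT-CYB) and 3 in light-strand RNA. T reads of a base change in the DNA of this cell line and of a modified base cannot be told apart in these tables.

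Sites were called with the depth, read and input criteria of the study's methods, namely 10 or more reads, 3 or more of them with T, and over 3 times the input's ratio, each required in all 3 replicates. The background criterion from spike-in RNA was not applied. The tRNA genes had 1 called position, the first base of MT-TL1, with T in 3 of 66, 3 of 58 and 3 of 88 imbalanced reads. A larger share of the imbalanced reads there, 17.9%, carried A. That base is next to the 3′ end of MT-RNR2. This 1 call was 5% of the 20 tRNA positions listed under imbalanced dNTP, against 16.8% of all positions listed there. With the conditions exchanged 2 tRNA positions met the same criteria, position 37 of MT-TF and of MT-TP, against 0.12% of all positions in the balanced table. Neither was listed under imbalanced dNTP, so that its ratio there was not measured but taken as 0. The nearest base of MT-TP listed there had depths of 12, 9 and 13 reads.

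The protein-coding genes had 24 called positions among 8376 with G, A or C on the coding strand (0.287%, 95% Wilson interval 0.193% to 0.426%). With any 1 replicate left out there were 39 to 57. They were 5.73% of the coding positions listed under imbalanced dNTP, below the 16.8% called among all positions listed there. They encode subunits of the respiratory chain and the ATP synthase. Most called positions were in MT-CO1, a core subunit of complex IV (10 positions), and MT-ND6, the complex I subunit encoded on the light strand (9). MT-CO2 had 3, and MT-CO3 and MT-ND4L had 1 each. The 8 other coding genes, among them MT-ND5 and MT-CYB, had 0. By complex, 10 were in complex I genes, 14 in complex IV genes, and 0 in MT-CYB of complex III or in the MT-ATP6 and MT-ATP8 genes of complex V.

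Depth differed between these genes. Listed positions of MT-CO1 had a median depth of 63 imbalanced and 81 balanced reads, those of MT-ND6 38 and 43, and those of MT-ND5 15 and 16. Of the listed MT-CO1 positions 57.4% lie in windows of 100 nt with a near-identical nuclear copy. The longest nuclear copy, on chromosome 1 (629081 to 634924, 98.5% identity over 5846 nt), had 5 positions listed under imbalanced dNTP itself, with a median depth of 19 reads and 0 called. Without positions in such windows 15 coding positions stayed called.

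Among called coding positions the highest ratio was in MT-ND6. Some cytidines that were not called, in MT-ND4, MT-CO1, MT-ND1 and MT-CYB, had higher imbalanced ratios, with balanced ratios of 12.4% or more. The MT-ND6 and MT-CO1 positions in this and the next paragraph were chosen for a high difference between conditions, which edgeR then tested. Their edgeR p-values are therefore not independent of the choice. Listing, at 3 reads with T under imbalanced but 1 under balanced dNTP, also favoured this direction. The MT-ND6 guanosine at chrM:14478 had T in 5 of 44, 7 of 36 and 10 of 53 imbalanced reads and in 0 of 78, 0 of 53 and 1 of 74 balanced reads. All imbalanced libraries were above all balanced ones, with means of 16.6% ± 4.51 and 0.450% ± 0.780 (SD, n = 3; edgeR log2 change 4.78, adjusted p = 0.000517). Its adenosine at chrM:14547 had T in 6 of 53, 4 of 49 and 9 of 63 imbalanced reads and in 1 of 69, 0 of 49 and 0 of 78 balanced reads (edgeR log2 change 4.17, adjusted p = 0.0036). The test was not passed at chrM:14547 without replicate 1, 2 or 3 (edgeR adjusted p = 0.0605, 0.0707 and 0.18), nor at chrM:14478 without replicate 2 (edgeR adjusted p = 0.0502).

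In MT-CO1 the guanosine at chrM:6280 had T in 6 of 67, 6 of 70 and 14 of 106 imbalanced reads and in 0 of 154, 0 of 94 and 1 of 143 balanced reads (edgeR log2 change 4.97, adjusted p = 3.09e-05). Both conditions were again apart in all replicates. The guanosine at chrM:6249 had the smallest adjusted p among these (2.62e-07) and uneven replicates, with T in 16 of 89, 2 of 63 and 16 of 147 imbalanced reads. With only 2 reads in replicate 2 it was not called. The windows around 3 of these positions are shown for the bases beside the mutated one, in capitals.

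MT-ND6, chrM:14468-14488, minus strand: aatgatggttGtctttggata

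MT-ND6, chrM:14537-14557, minus strand: gtgtgttattAttctgaattt

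MT-CO1, chrM:6270-6290, plus strand: ggaacaggttGaacagtctac

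MT-ND5 mRNA is known to carry 1-methyladenosine, and 1 of its adenosines, base 1374 of the gene, was listed in the balanced table only. It had T in 2 of 17, 1 of 16 and 1 of 18 reads.

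Light-strand RNA without a gene had the most called positions, 126 of 10748 available ones (1.17%, 95% Wilson interval 0.986% to 1.39%), and 0 with the conditions exchanged. With any 1 replicate left out there were 168 to 245. All members together had 151 calls (from 208 to 304 when any 1 replicate was left out), 10.2% of the positions listed under imbalanced dNTP, also below the 16.8% over all positions. With MT-ND6 included, the minus strand had 135 called positions among 11444 available ones and the plus strand outside the rRNAs 16 among 10511. Of positions listed under imbalanced dNTP, these were 135 of 1117 and 16 of 370. Called light-strand positions had mean ratios from 3.00% to 23.0% with a median of 9.88%, and 61 of the 126 were at 10% or more. Pooled over the 126, T made up 9.64%, 10.6% and 8.19% of the reads in imbalanced replicates 1, 2 and 3. Of the 126 positions 106 were not listed under balanced dNTP, where their input ratio was taken as 0.

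**Figure D2:**
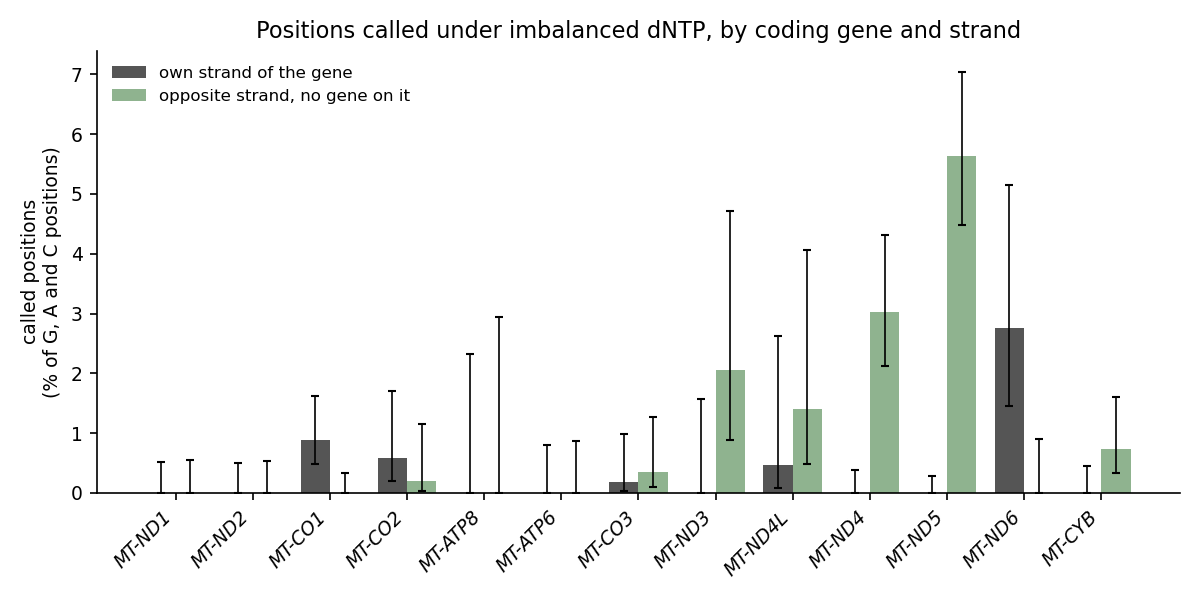
Called positions as a percentage of all G, A and C positions (vertical axis) for each of the 13 coding genes, on the gene's own strand and on the opposite strand where no gene is annotated. Error bars are 95% Wilson intervals of the count: the opposite strand of MT-ND5 reached 5.63% with 0 called on its own strand, and MT-ND6 had called positions on its own strand only.

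The calls, like the listed positions, were concentrated opposite a few genes. The strand opposite MT-ND5 had 71 called positions (5.63% of 1261 available) and the strand opposite MT-ND4 29 (3.03% of 958), together 79.4% of the light-strand calls. Of positions listed under imbalanced dNTP, these were 71 of 388 opposite MT-ND5 and 29 of 244 opposite MT-ND4. Over all positions listed there, 16.8% were called. Opposite MT-CYB there were 6, opposite MT-ND3 5, MT-ND4L 3, MT-CO3 2 and MT-CO2 1, and opposite MT-ND1, MT-ND2, MT-CO1, MT-ATP6 and MT-ATP8 there were 0. The share of called positions was higher opposite than on the own strand for 6 of the 12 heavy-strand coding genes. It was higher on the own strand for MT-CO1 and MT-CO2. MT-ND1, MT-ND2, MT-ATP6 and MT-ATP8 had 0 called positions on both strands. Opposite the tRNA genes 9 of 608 positions were called.

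Opposite the rRNA genes 0 of 1650 available positions were listed in either condition. The rRNAs on the plus strand had 358 called positions.

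Listing and calls varied along the light-strand transcript. Counted from the base before MT-TF, 17 of 696 available positions were listed under imbalanced dNTP in the first kb, 243 of 695 between 4 and 5 kb and 0 beyond 11 kb. Between 3 and 6 kb lay 105 of the 126 called positions (83.3%). Of positions listed under imbalanced dNTP, 27 of 176, 51 of 243 and 27 of 207 were called in the successive kb of this stretch. Over all positions listed under imbalanced dNTP 16.8% were called. The median depth of listed positions in that stretch was highest between 4 and 5 kb, at 50, 45 and 67 imbalanced reads. The first kb, which holds the control region, had the highest depth of all (134, 100 and 208 imbalanced reads). It had 0 called positions and a median ratio of 2.15% at its listed positions. Listing needed 3 reads with T in 1 imbalanced library, so lower ratios can be listed at higher depth. From 9 kb onward no position was called, at depths of 13.5 imbalanced reads or fewer.

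**Figure D3:**
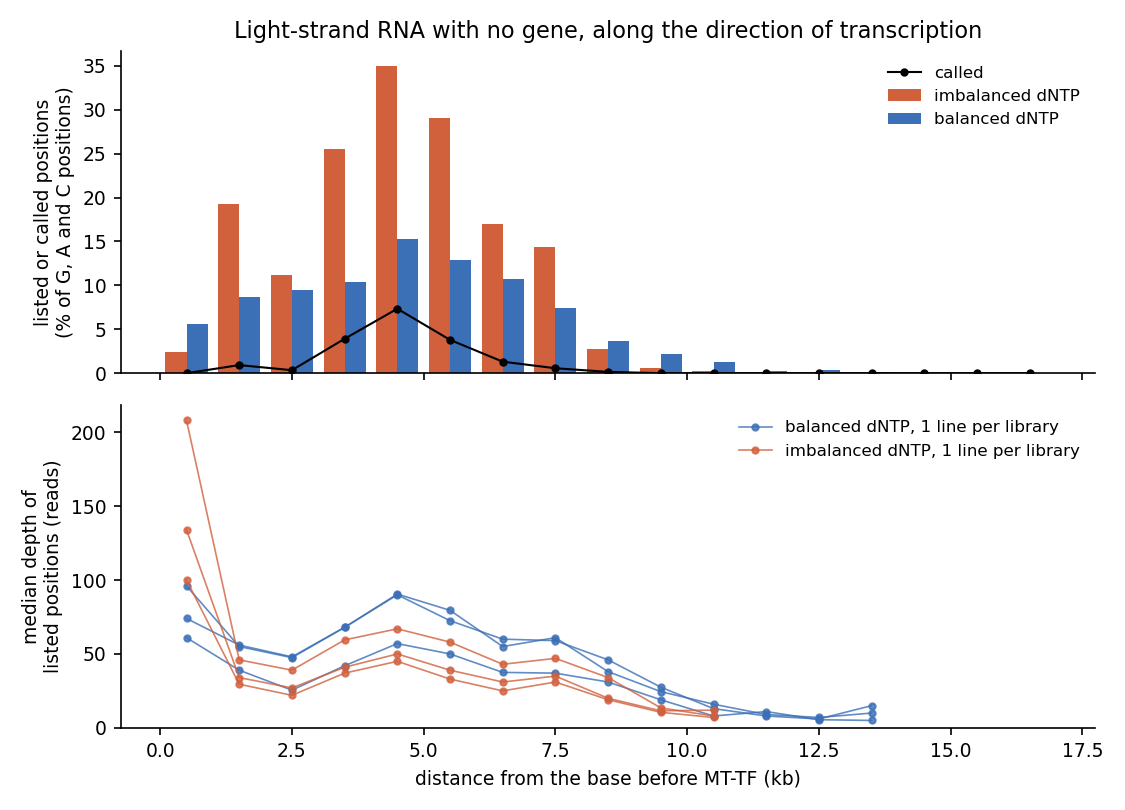
Light-strand RNA without a gene in windows of 1 kb, by distance from the base before MT-TF (horizontal axis, kb) in the direction of transcription. Above, bars give listed positions and the line called positions as percentages of the available G, A and C positions; below, each line is the median depth of listed positions in 1 library, with no point where none was listed. Called positions peaked at 7.34% of the available ones between 4 and 5 kb, where 51 of the 243 positions listed under imbalanced dNTP were called.

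Since a call needs 3 reads with T in each replicate, called shares were compared at like depth. Among positions with a lowest imbalanced depth from 20 to under 50 reads, 12.2% of 705 listed light-strand positions were called (95% Wilson interval 9.99% to 14.8%), 5.74% of 209 coding positions (3.31% to 9.77%) and 10.7% of all listed positions. From 50 to under 100 reads the shares were 25% of 144 light-strand positions (18.6% to 32.7%), 12% of 100 coding positions (7.0% to 19.8%), 16.1% of rRNA positions and 28.4% of all.

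Guanosine prevailed among the called light-strand positions. Of the 126, 97 were G, 27 A and 2 C, or 77.0% G (95% Wilson interval 68.9% to 83.5%), while G made up 45% of the available positions and 49.8% of those listed under imbalanced dNTP. In the rRNAs 22.3% of called positions were G at 23.0% of the available ones. In the nuclear genome 40.1% of called positions were G at 47.5% of the listed ones. In the coding genes 14 of 24 called positions were G. The median ratio of called light-strand positions was 10.8% at G and 8.44% at A.

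Uridines flanked the called light-strand guanosines. With U on both sides 45 of 420 available G were called (10.7%), with U only before the base 38 of 999 (3.8%), with U only after it 7 of 971 (0.721%) and with no U beside it 7 of 2446 (0.286%). So 46.4% of called light-strand G lay between uridines (95% Wilson interval 36.8% to 56.3%), against 8.68% of the available ones. In the coding genes 7 of 14 called G did, against 4.59% of the available ones, so this was not particular to light-strand RNA. Of called nuclear G 24.8% did, and of called rRNA G 12.5%, without a share of the available ones to set beside them. The letters searched were U, any base and U on the RNA strand itself.

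Among listed positions the ratio was highest between uridines in every library. Listing needed at least 3 reads with T in 1 imbalanced library, so the same reads set both the listing and the ratio. At a depth of at least 10, 125 of 420 available G between uridines entered, but only 81 of 2446 with no U beside them. How much this selection changed the differences was not tested. Pooled over listed G with a depth of at least 10, T made up 8.73%, 9.61% and 9.01% of imbalanced reads between uridines and 4.14%, 4.58% and 4.60% with no U beside the base. The difference was 4.68 ± 0.317 percentage points (SD, n = 3; higher in 3 of 3 libraries; two-sided exact permutation test on pairs, p = 0.25, the smallest possible). A U before the base went with a higher ratio than a U after it, by 1.72 ± 0.0803 percentage points in 3 of 3 libraries. A U after the base and no U beside it differed by 0.133 ± 0.265 percentage points, higher with U in 2 of 3 libraries (n = 3, two-sided exact permutation test on pairs, p = 0.5). For adenosine the ratio was 6.73% ± 0.183 between uridines and 3.94% ± 0.239 with no U beside it, a difference of 2.79 ± 0.422 percentage points. For adenosine the contrast of U before against U after was 0.349 ± 0.378 percentage points and above 0 in only 2 of 3 libraries (n = 3, same test, p = 0.5 by exact permutation).

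**Figure D4:**
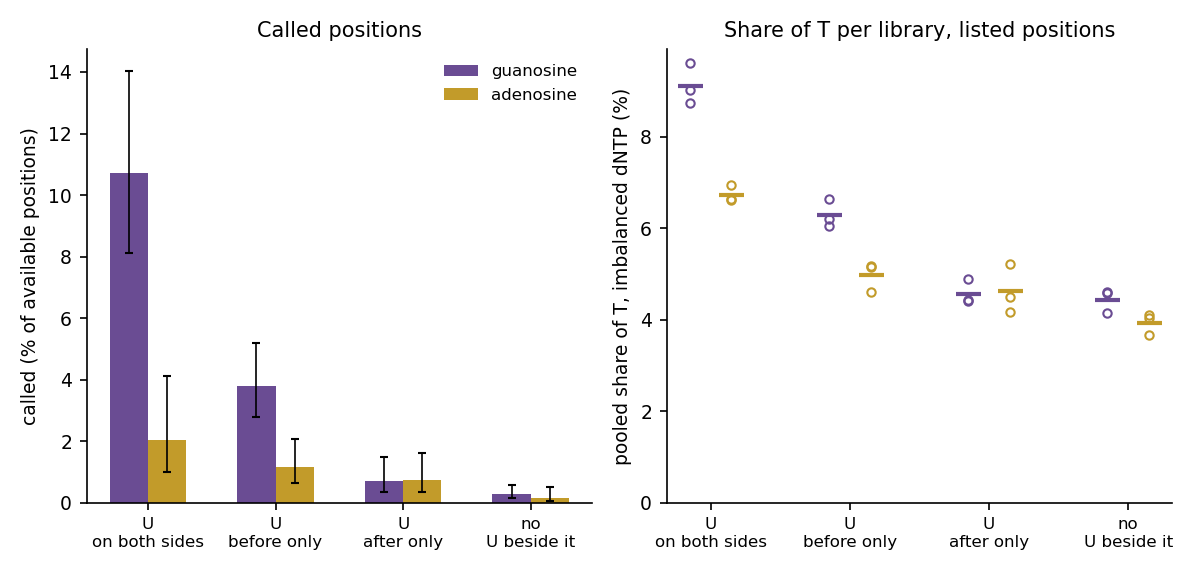
Light-strand guanosine and adenosine without a gene, by the presence of U directly before and after the base. Left, called positions as a percentage of available ones with 95% Wilson intervals; right, the pooled share of T in each imbalanced library (open points) with the mean (bar), over listed positions with 10 reads or more: G between uridines stood at 9.11% and G with no U beside it at 4.44%.

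The called light-strand positions with the highest ratios were guanosines. At chrM:15604, opposite MT-CYB, T was found in 9 of 36, 8 of 29 and 8 of 49 imbalanced reads. At chrM:12870, opposite MT-ND5, it was found in 12 of 53, 16 of 52 and 9 of 67 reads. At chrM:13136, also opposite MT-ND5, the counts were 7 of 43, 6 of 35 and 13 of 56 reads, and at chrM:12535, the next in order, 14 of 75, 16 of 69 and 11 of 83 reads. None of these 4 was listed under balanced dNTP, and they were chosen after their values were seen.

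The guanosines listed in both tables and named next were chosen for a high difference between conditions, which edgeR then tested. Listing, at 3 reads with T under imbalanced but 1 under balanced dNTP, also favoured this direction. Among them, chrM:12281, opposite the leucine tRNA gene MT-TL2, had T in 9 of 43, 5 of 29 and 8 of 52 imbalanced reads and in 0 of 83, 0 of 46 and 1 of 89 balanced reads. Both conditions were apart in every replicate (edgeR log2 change 5.02, adjusted p = 0.000217, and 0.07 without replicate 1). At chrM:13389, opposite MT-ND5, the counts were 4 of 49, 7 of 38 and 15 of 65 imbalanced reads and 0 of 115, 0 of 79 and 2 of 135 balanced reads (edgeR log2 change 4.82, adjusted p = 1.99e-05). The largest difference at a depth of at least 20 was at chrM:12417, where 2 of 33, 17 of 42 and 10 of 43 imbalanced reads carried T, a spread that kept it from being called. Replicate 1 was 6.06% there and replicate 2 40.5%. The surroundings of 5 of these positions, with the mutated guanosine in capitals, show the bases beside it.

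opposite MT-CYB, chrM:15594-15614, minus strand: ctcctagtttGttagggacgg

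opposite MT-ND5, chrM:12860-12880, minus strand: aaccgatatcGccgatacggt

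opposite MT-ND5, chrM:12525-12545, minus strand: gtggctcagtGtcagttcgag

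opposite MT-TL2, chrM:12271-12291, minus strand: atggatagctGttatccttta

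opposite MT-ND5, chrM:13379-13399, minus strand: cttgttcattGttaaggttgt

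The classes were then compared over libraries, at positions in both tables where each of the 6 libraries had 10 reads or more. The tRNA positions were only 4, bases 9 and 25 of MT-TF and bases 9 and 60 of MT-TL1. Base 60 gave the most T reads, in 82 of its 153 balanced and 58 of its 103 imbalanced reads. The 4 had pooled mutation ratios of 22.9%, 20.8% and 24.4% under imbalanced and 23.9%, 23.3% and 22.3% under balanced dNTP. The conditions overlapped, and the difference was -0.463 ± 2.38 percentage points (SD, n = 3; higher in 1 of 3 pairs; two-sided exact permutation test on pairs, p = 0.75). As a median over the 4 positions in place of the pooled ratio, it was -11.7 percentage points.

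The coding positions (72) had 5.73%, 6.00% and 5.78% under imbalanced and 2.23%, 2.40% and 2.63% under balanced dNTP. Light-strand positions (155) had 6.20%, 6.49% and 6.06% under imbalanced and 1.5%, 1.26% and 1.57% under balanced dNTP. In both classes all imbalanced libraries were above all balanced ones (two-sided exact permutation test on pairs, p = 0.25 each, the smallest possible). Listing needed 3 reads with T in 1 library under imbalanced dNTP but 1 under balanced dNTP, which by itself favours this direction. How much of the difference comes from it was not tested, here or in the comparisons below over positions in both tables. Without the positions at 80% or more, the balanced ratio was 0.510% ± 0.0865 in coding genes and 0.505% ± 0.127 in light-strand RNA, and the imbalanced ratio 4.47% ± 0.245 and 5.52% ± 0.285 (SD, n = 3).

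**Figure D5:**
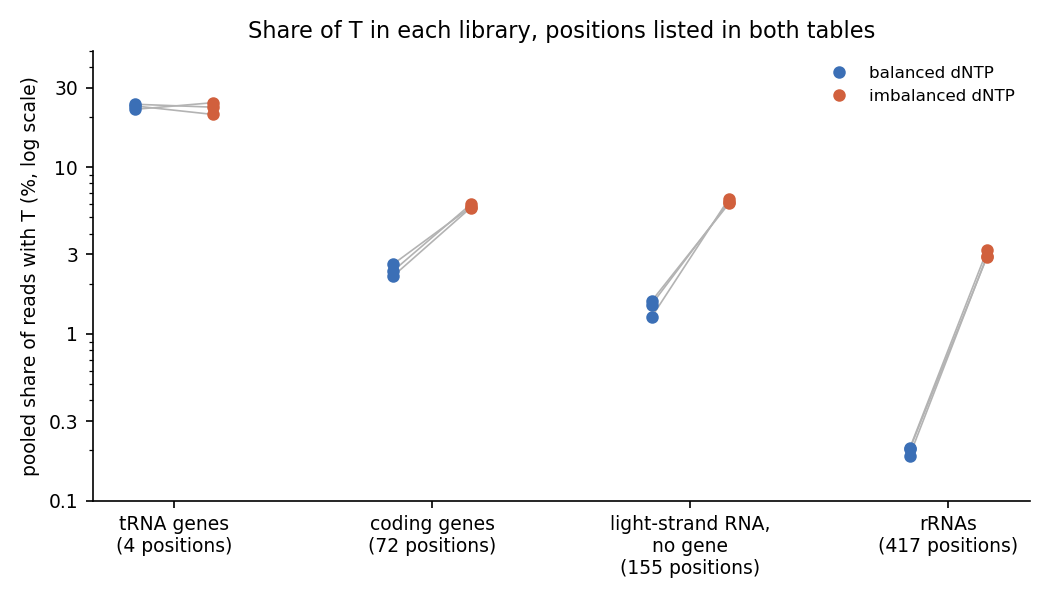
Pooled share of reads with T (vertical axis, percent, log scale) in each library under balanced and imbalanced dNTP, for tRNA genes, coding genes, light-strand RNA without a gene and the mitochondrial rRNAs, at positions listed in both tables with a depth of at least 10. Grey lines join the libraries of 1 replicate: the tRNA genes, with 4 positions in MT-TF and MT-TL1, stayed between 20.8% and 24.4%. The other classes were higher under imbalanced dNTP in all 3 pairs.

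On the log2 scale the ratio of imbalanced to balanced was -0.03 ± 0.15 in tRNA genes, 1.27 ± 0.12 in coding genes, 2.12 ± 0.22 in light-strand RNA and 3.92 ± 0.08 in the rRNAs (SD, n = 3). The change of the tRNA genes minus that of coding genes was -1.30 ± 0.26, minus that of light-strand RNA -2.15 ± 0.36 and minus that of the rRNAs -3.96 ± 0.22, each below 0 in 3 of 3 pairs. The change of light-strand RNA minus that of coding genes was 0.85 ± 0.18. All 6 pairs of classes compared gave the smallest possible p of 0.25 by the exact paired permutation test (two-sided, adjusted p = 0.25 over the 6). The median lowest depth was 27.5 reads in tRNA genes, 49 in coding genes, 34 in light-strand RNA and 185 in the rRNAs. Listing under balanced dNTP needed a read with T, so the lowest balanced ratio that can be listed falls as depth rises. The classes were not matched for depth in these differences.

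The sizes of these changes rest on few positions. Without the 2 coding and 2 light-strand positions at 80% or more, the log2 ratio was 3.14 ± 0.18 in coding genes and 3.48 ± 0.39 in light-strand RNA (SD, n = 3). The change of light-strand RNA minus that of coding genes was then 0.33 ± 0.36, above 0 in 2 of 3 pairs (two-sided exact permutation test on pairs, p = 0.5). Minus that of the rRNAs it was -0.45 ± 0.31 for light-strand RNA and -0.78 ± 0.15 for coding genes, and for the tRNA genes the difference was -3.18 ± 0.23 from coding genes and -3.51 ± 0.53 from light-strand RNA, each below 0 in 3 of 3 pairs.

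Position by position, edgeR tested 231 members, of which 76 had a higher share of T under imbalanced dNTP and 1 a lower one. Over all 32284 positions tested 73.9% were higher and 0.0558% lower. Of the tRNA positions 0 of 4 passed, also 0 by DESeq2 and 0 at an unadjusted p under 0.05 in the lower direction, with a median log2 change of -0.65. Of the coding positions 23 of 72 were higher, with a median log2 change over the 72 of 2.61, and 53 of 155 light-strand positions, with a median of 2.95. The 76 became 6 without replicate 1, 8 without replicate 2 and 11 without replicate 3. The median over all positions tested was 3.94, at a median lowest depth of 243 reads, against 49 in coding genes and 34 in light-strand RNA. At a lowest depth from 20 to under 50 reads 23.3% of coding, 31.6% of light-strand and 34.2% of all positions were higher, and from 50 to under 100 reads 47.1%, 51.7% and 61.0%.

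The 1 member with a lower share was a cytidine of MT-CO1, at 109 of 132, 74 of 85 and 115 of 136 balanced reads and 48 of 68, 43 of 68 and 55 of 94 imbalanced reads with T. All balanced libraries were above all imbalanced ones, with mean shares of 84.7% ± 2.25 and 64.1% ± 6.09 (SD, n = 3). The odds of T against no T, not the share, fell by 1.63 on the log2 scale (edgeR adjusted p = 0.000647). DESeq2 did not call it, and neither did edgeR without replicate 2 or without replicate 3. It is 1 of the positions with T in at least 80% of balanced reads.

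By gene, enough positions for a pooled ratio (at least 5 below 80%) were found in MT-CO1, MT-ND4 and MT-ND6 and opposite 6 genes. MT-CO1 (43 positions) rose from 0.380% ± 0.0432 balanced to 3.99% ± 0.317 imbalanced. MT-ND6 (8 positions) went from 0.553% ± 0.273 to 7.71% ± 1.61. Opposite MT-ND5 (61 positions) the ratios were 0.465% ± 0.109 and 5.55% ± 0.697, opposite MT-ND4 (37) 0.494% ± 0.169 and 5.00% ± 0.439, and opposite MT-CYB (14) 0.686% ± 0.0963 and 6.29% ± 0.228. The highest was opposite MT-CO3 (8 positions), at 8.96% ± 0.834 under imbalanced dNTP. Each was higher in 3 of 3 pairs (SD, n = 3; two-sided exact permutation test on pairs, p = 0.25, adjusted p = 0.25 over the 9 sets compared). MT-ND4 on its own strand had 1.01%, 1.67% and 8.04% in the 3 imbalanced libraries, so that replicate 3 sets its mean.

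Within classes the base made a smaller difference in this pooled ratio than the condition. In light-strand RNA guanosines had 6.06% ± 0.452, adenosines 4.84% ± 0.456 and cytidines 5.16% ± 0.582 under imbalanced dNTP, and 0.522% ± 0.145, 0.479% ± 0.155 and 0.505% ± 0.180 under balanced dNTP (SD, n = 3). In coding genes the imbalanced values were 5.75% ± 0.287, 3.78% ± 0.571 and 4.09% ± 0.511. These ratios are over positions in both tables. Such positions had at least 3 reads with T in 1 imbalanced library but needed only 1 in a balanced library. This rule favours a higher ratio under imbalanced dNTP, so that base and condition are not compared on equal terms.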

How the data were processed

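caRNA of HepG2 cells was measured in 3 imbalanced and 3 balanced dNTP libraries. The authors used Cutadapt for trimming, BBMap to collapse reads sharing a molecular identifier, TopHat2 for alignment to hg38 and JACUSA for tallying bases (versions not given in the sources used here). The deposited values are unnormalized counts: for each library, the reads with each base at a stranded position. The deposited JACUSA score was not used. The members, lists and tests were chosen with earlier results of these data known.

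Positions were annotated with GENCODE release 44 on their own strand, tRNA before coding genes. Reads with and without T were tested with edgeR 4.0.16 (R 4.3.3; quasi-likelihood, Benjamini-Hochberg over 32284 positions in both tables where each of the 6 libraries had 10 reads or more), with library effects and the replicate number as a block. The log2 changes of this test are of the odds of T against no T, not of the share of T. DESeq2 1.42.0 was an alternative. The fit was tested on simulated data. Class ratios are summed T over summed depth, compared by exact paired permutation. Nuclear copies were found with blastn 2.17.0 (windows of 100 nt, at least 98% identity). Other steps used matplotlib 3.10.9, scipy 1.17.1, pandas 2.3.3 and numpy 2.4.6 under Python 3.11.15.

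Replicate numbers pair the libraries by the labels, since 1 ligated RNA was divided. Deviations of log2 depth at 24432 positions correlated at 0.75, 0.59 and 0.87 within pairs, and also between replicates 1 and 2 (0.70 and 0.60). Positions named in the text are the ninth tRNA bases, the up to 10 positions per class with the highest balanced ratio and with the highest difference between conditions at a depth of at least 100 (20 where fewer than 5 reached it), positions against the main direction, and others said to be chosen after their values were seen, as were the further tRNA, MT-ND5 and MT-ND6 positions. Summed depth per library was between 17063930 and 34367262 reads. Wilson intervals cover counting error only. Alternatives changed depth, ratio, input, normalization, block and replicates.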

Additional observations from a re-analysis of the deposited data

How the results depend on the processing

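The coding and light-strand classes kept a higher share of T under imbalanced dNTP, and all 6 class differences kept the sign of their mean, under every alternative that gave a value, but their sizes moved. Light-strand RNA minus coding genes (0.85) was 0.32 as a median of log2 changes, 2.09 at a depth of at least 50, 2.20 without positions at 90% or more and 0.33 without those at 80% or more, and light-strand RNA minus the rRNAs (-1.80) was -0.45 without either. The tRNA difference of -0.463 percentage points became 2.63 over every position listed in each table, -11.7 as a median over positions and -2.25 with no minimum depth, and ranged from -1.75 to 0.586 with 1 replicate left out, above 0 without replicate 2. At base 60 of MT-TL1 the log2 change ranged from -0.15 without replicate 1 to 0.32 without replicate 2. The ninth-base difference was -12.8 percentage points as a sum over genes and from -12.6 to -2.58 with 1 replicate left out. A depth of at least 50 left no tRNA position for these comparisons.

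Called sites fell to 12 coding, 36 light-strand and 49 members in all at a depth of at least 50. At a ratio of at least 0.05 they were 0 in tRNA and 15 in coding genes, and at 0.1 they were 0, 1, 22 and 23 in tRNA genes, coding genes, light-strand RNA and all members. Over positions in both tables they were 0, 10, 20 and 30. With 1 replicate left out, which lowers the number of replicates that must pass, they were 39 to 57 coding, 168 to 245 light-strand and 208 to 304 in all. Positions with T under balanced dNTP fell to 4 in tRNA genes at a ratio of 0.2, and at a depth of at least 50 to 2 in tRNA genes, 1 in coding genes, 0 in light-strand RNA and 3 in all.

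The replicate numbers pair the libraries, and without the replicate block edgeR called 37 coding, 90 light-strand and 127 members higher. It changed no direction and no call in tRNA genes. At a depth of at least 50 edgeR called 21 light-strand positions and 40 members higher. DESeq2 called 0 coding positions and 0 members lower. With 1 replicate left out edgeR called 3 to 5 coding, 3 to 6 light-strand and 6 to 11 members higher, and 0 to 1 coding positions and 0 to 1 members lower. Without windows near-identical to the nuclear genome, chosen after seeing the data as was leaving out positions at 80% or more, 15 coding positions were called and 14 were higher by edgeR. Where no construction shows the cause of a change, the cause was not tested. A median depth of 33 to 53 imbalanced reads limits each single position.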
